A study of Rattus norvegicus with 23 samples.

Results

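The genes described here encode integrins and laminins, 32 of the 14217 genes that the arrays measured by name in rat kidney. The set was chosen with earlier results of these data known. Its genes were taken by symbol alone: every integrin alpha or beta chain (Itga, Itgb and the lettered leukocyte chains) and every laminin alpha, beta or gamma chain (Lama, Lamb, Lamc). Among them were 7 leukocyte integrins, 15 other integrins and 10 laminins, each read at its brightest probe set, the group of short probes that stands for a transcript. RNA came from the kidneys of 23 male rats of the SBH/y and SBN/y strains, known as the hypertension-prone and hypertension-resistant lines of the Sabra rat. The groups were SBH/y rats whose right kidney had been removed (6 rats), SBH/y rats with 2 kidneys after a sham operation (6), SBN/y rats whose right kidney had been removed (6), and SBN/y rats with 2 kidneys after a sham operation (5). All were operated on after weaning, ate ordinary rat chow freely and gave their kidneys 3 months after surgery, aged 4 months. The series title names proteinuria, the loss of protein into urine, as its subject. The comparisons therefore ask what the remaining kidney of each strain expressed after uninephrectomy, and how the strains differed with 1 kidney and with 2.

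Integrins are receptors made of an alpha and a beta chain that hold cells to the extracellular matrix or to other cells and pass signals in both directions across the membrane. Laminins are trimers of an alpha, a beta and a gamma chain that build the basement membranes on which tubule cells, endothelium and podocytes rest, and several integrins are their receptors. In the kidney they are known for the glomerular filter, where podocytes grip a laminin-rich membrane, while the leukocyte integrins serve white blood cells in leaving vessels and in contact with other cells.

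None of the cell type markers checked here lay within the range of Xist (2.14 to 3.13), a transcript that male cells lack, on all arrays, although a few averaged within it, such as the fibroblast marker Lum (2.78). The 6 proximal tubule markers averaged between 10.64 and 10.85 on every array. GAPDH control probes compare the 2 ends of a transcript, and a larger gap between them (3' minus 5') can mark partly degraded RNA. The gap was 0.53 ± 0.11 in uninephrectomized SBH/y, 0.46 ± 0.06 in sham SBH/y, 0.45 ± 0.04 in uninephrectomized SBN/y (SD, n = 6 each) and 0.35 ± 0.03 in sham SBN/y (SD, n = 5), and so moved with the groups. Replicate 3 of sham SBH/y and replicate 2 of uninephrectomized SBH/y stood apart in an earlier account of these data, and values without both are given where they matter. All values below are log2 expression, on which a difference of 1 is a doubling. Of the 32 genes, 7 were dimmer on average than the median probe set (4.66): Itga11, Itgad, Itgae, Itgam, Itgb3, Itgb7 and Lamb3. Itga11, a collagen receptor chain, never exceeded 3.02, within the range of Xist, so differences in it could not be measured.

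In SBH/y, 6 of the 32 genes were higher after uninephrectomy than after the sham operation and none was lower. They were the laminin receptor chains Itgb4 and Itga6, the receptor chain Itga9, the laminin chain Lamb1, and the leukocyte integrins Itgal and Itgb2. By limma at an adjusted p under 0.05, 4.76% of all genes were higher and 2.40% lower in this comparison, against 6 and 0 of 32 here. The median difference over the 32 genes was 0.09, and over all genes 0.0036. By class, 2 of 7 leukocyte integrins, 3 of 15 other integrins and 1 of 10 laminins passed. The kidneys were not separated into cell types, so more cells of a type and more RNA per cell cannot be told apart here or in any later comparison.

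Itgb4 encodes the beta chain that pairs with the chain of Itga6 to form the laminin receptor of hemidesmosomes, the anchors of epithelia. It was read at 5.18, 5.45 and 5.78 (lowest, median and highest of 6) in uninephrectomized SBH/y kidneys, against 4.65, 4.81 and 5.24 in sham SBH/y kidneys. Replicate 3 of the sham group, at 5.24, was the only sham array above the lowest uninephrectomized one, and the next lay at 4.85. The difference was 0.59 ± 0.09 (SE), or 1.51-fold (limma adjusted p = 9.05e-05), and 0.65 without the 2 arrays that stood apart.

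Itga6 encodes the alpha chain that joins the beta chain of Itgb4 or of Itgb1 in laminin receptors. Its levels were 8.68, 9.03 and 9.21 in uninephrectomized SBH/y kidneys, against 8.58, 8.75 and 8.86 in sham SBH/y kidneys. Of the uninephrectomized arrays, 1 fell among the sham values and the rest lay above them all. The difference was 0.29 ± 0.08 (SE, limma adjusted p = 0.0297), and it did not pass without the 2 arrays that stood apart (0.22, adjusted p = 0.162) or with the GAPDH measure as a covariate (0.26, adjusted p = 0.106). Leaving out 1 array ended the call in 7 of 23 fits (adjusted p up to 0.0860), those without replicate 1, 2, 3 or 6 of uninephrectomized SBH/y or 1, 3 or 6 of sham SBH/y. The other 3 probe sets of Itga6 gave 0.18, 0.12 and -0.04, none past the threshold. Markers of injured proximal tubule moved alongside both chains: 5 of 7 were higher after uninephrectomy, against 4.76% of all genes. The list's mean lay between 7.96 and 8.56 on the uninephrectomized arrays, against 7.06 to 7.24 on the sham SBH/y arrays. Some markers of other lists were lower, against 2.40% of all genes. They were 4 of 5 for intercalated cells, 3 of 6 for podocytes, 2 of 5 for principal cells and 2 of 5 for endothelium. So were 1 of 5 adipocyte markers and 1 of 3 red cell markers, the latter Slc4a1, which is also on the intercalated cell list. None of the 6 proximal tubule, 3 thick ascending limb and 2 distal convoluted tubule markers passed in either direction. The part of these lists in the differences of Itgb4 and Itga6 was not tested.

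Itga9 encodes an alpha chain that pairs with the chain of Itgb1 and is known to bind tenascin, osteopontin and Vcam1. It was read at 5.01, 5.19 and 5.55 in uninephrectomized SBH/y kidneys, against 4.60, 4.82 and 4.86 in sham SBH/y kidneys. The groups did not overlap, which held in the same direction for 2.97% of all genes. The difference was 0.45 ± 0.08 (SE), or 1.37-fold (limma adjusted p = 0.00106). A second probe set, with group means between 3.08 and 3.14 and so at the upper end of the Xist range, gave -0.05 (adjusted p = 0.822).

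Lamb1 encodes the laminin beta chain of most basement membranes. The developing glomerular membrane holds it, and the mature one is known to hold the chain of Lamb2 in its place. Lamb1 stood at 8.22, 8.43 and 8.51 in uninephrectomized SBH/y kidneys, against 7.94, 8.14 and 8.30 in sham SBH/y kidneys. Only the lowest uninephrectomized array lay within the sham range. The difference was 0.27 ± 0.06 (SE), or 1.21-fold (limma adjusted p = 0.00519).

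The promoters of Itga9 and Lamb1 are shown because both genes were higher in the same kidneys; they are given 5′ to 3′ around the annotated start, from RefSeq on GRCr8. Itga9 lies at chr8:127185039-127185338 on the + strand and Lamb1 at chr6:53562846-53563145 on the + strand. Capitals mark matches on either strand to AP-1 (TGANTCA), the core bound by ETS factors of the PU.1 type (GAGGAA), the GC box of Sp1 (GGGCGG) and a TATA box (TATAAA).
Itga9: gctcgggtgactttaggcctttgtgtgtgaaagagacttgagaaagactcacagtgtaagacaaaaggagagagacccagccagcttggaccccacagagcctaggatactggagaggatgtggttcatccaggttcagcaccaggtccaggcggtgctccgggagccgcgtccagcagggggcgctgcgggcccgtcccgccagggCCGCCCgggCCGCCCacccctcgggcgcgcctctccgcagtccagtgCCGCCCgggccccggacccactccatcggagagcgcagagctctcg
Lamb1: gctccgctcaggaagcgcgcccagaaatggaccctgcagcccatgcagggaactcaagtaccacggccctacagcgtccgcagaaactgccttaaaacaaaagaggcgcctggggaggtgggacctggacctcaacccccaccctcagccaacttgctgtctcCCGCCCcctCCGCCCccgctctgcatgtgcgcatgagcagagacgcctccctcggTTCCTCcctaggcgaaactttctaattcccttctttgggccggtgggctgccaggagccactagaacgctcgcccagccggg
Itga9 held 3 GC boxes, and Lamb1 held 2 and 1 copy of GAGGAA. Of 27457 promoters of the same length, 34.9% held a GC box, 27.5% GAGGAA, 14.3% TATAAA and 7.33% the AP-1 letters. Among the 24 integrin and laminin genes with a promoter in the table, 13 held a GC box, 12 GAGGAA, 2 TATAAA and 2 the AP-1 letters.

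**Figure D1:**
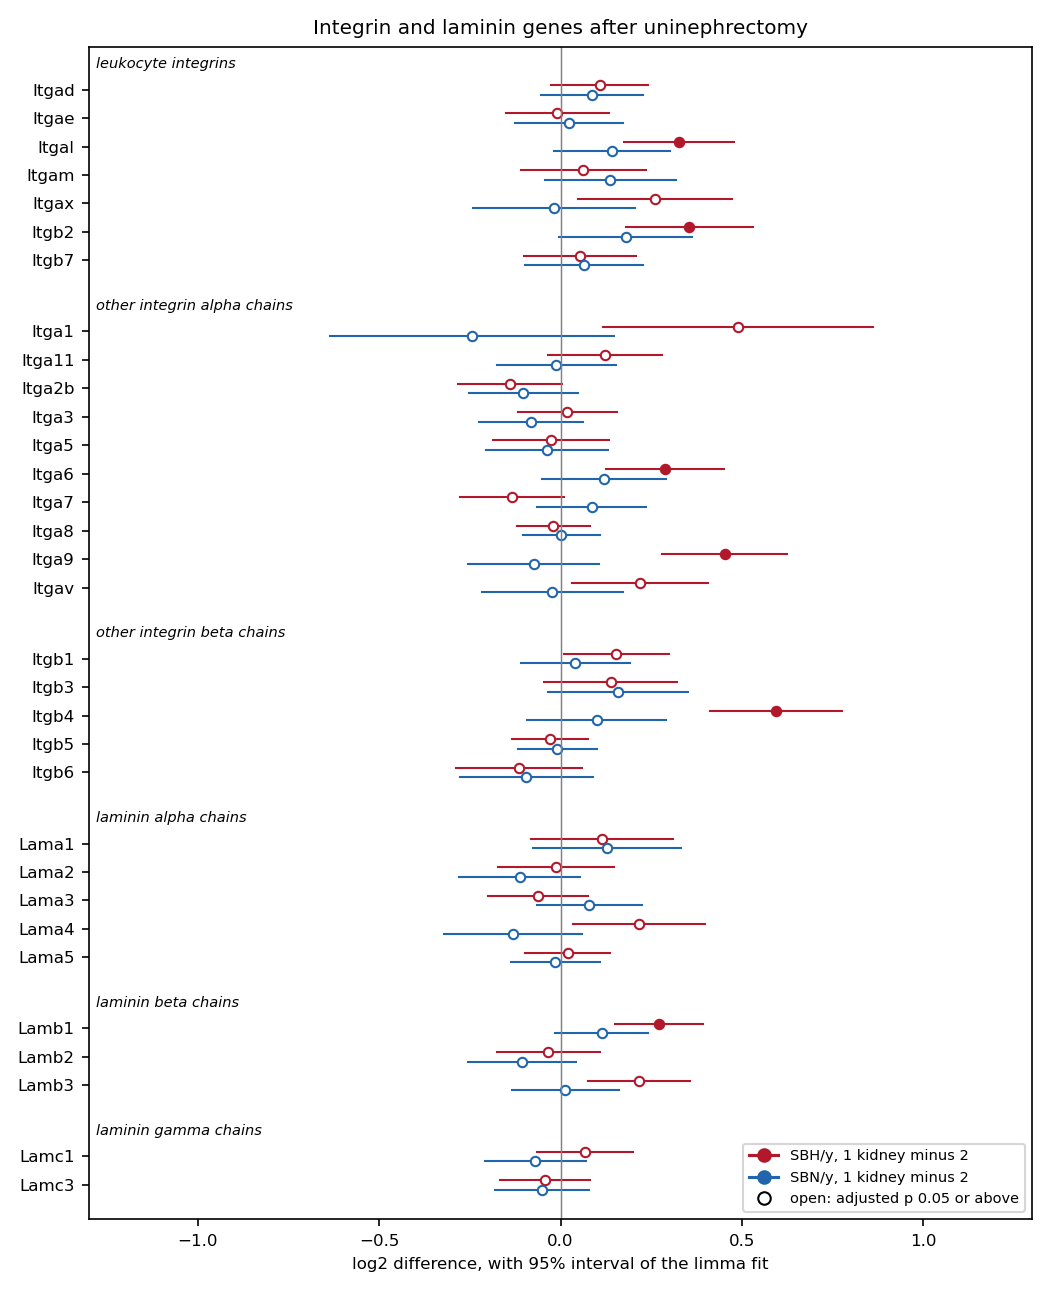
Log2 difference, 1 kidney minus 2 kidneys, for the 32 integrin and laminin genes in SBH/y (red) and SBN/y (blue), with the 95% interval of the limma fit as the line; filled points passed an adjusted p of 0.05. The 6 filled points are all in SBH/y, led by Itgb4 at 0.59, while the SBN/y points lie between -0.24 and 0.18.

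Among the leukocyte integrins, both chains of LFA-1, the receptor with which white blood cells bind Icam1, were higher in SBH/y after uninephrectomy. Itgal, its alpha chain, was read at 4.98, 5.21 and 5.41 in uninephrectomized SBH/y kidneys, against 4.69, 4.84 and 5.04 in sham SBH/y kidneys. The highest sham arrays overlapped the lowest uninephrectomized ones, and the difference was 0.33 ± 0.07 (SE, limma adjusted p = 0.00701). Itgb2, the beta chain that Itgal shares with Itgam, Itgax and Itgad, was read at 6.23, 6.43 and 6.74 in uninephrectomized SBH/y kidneys, against 6.002, 6.09 and 6.27 in sham SBH/y kidneys. A single sham array lay above the lowest uninephrectomized one, and the difference was 0.36 ± 0.08 (SE, limma adjusted p = 0.0103). Without the 2 arrays that stood apart it was 0.31 (adjusted p = 0.0554), and 4 of the 6 calls remained.

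Itgax, known as CD11c and carried by dendritic cells and macrophages, had a difference of 0.26 ± 0.10 (SE, limma adjusted p = 0.182) in the same comparison. The myeloid chains Itgam (0.06) and Itgad (0.11) and the mucosal lymphocyte chains Itgae (-0.0088) and Itgb7 (0.05) did not pass either, and all of them were dim. Markers of white blood cells moved alongside in uninephrectomized SBH/y kidneys. Higher were 5 of 6 pan-leukocyte, 8 of 9 myeloid and 3 of 6 T cell markers, against 4.76% of all genes. The mean of the pan-leukocyte list lay between 6.29 and 6.70 on the uninephrectomized SBH/y arrays, against 5.92 to 6.06 on the sham SBH/y arrays. The myeloid list lay between 7.30 and 7.71, against 6.89 to 7.01, and the T cell list between 4.46 and 4.76, against 4.22 to 4.37. None of these markers was within the Xist range on all arrays. Their part in the differences of Itgal and Itgb2 was not tested.

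**Figure D2:**
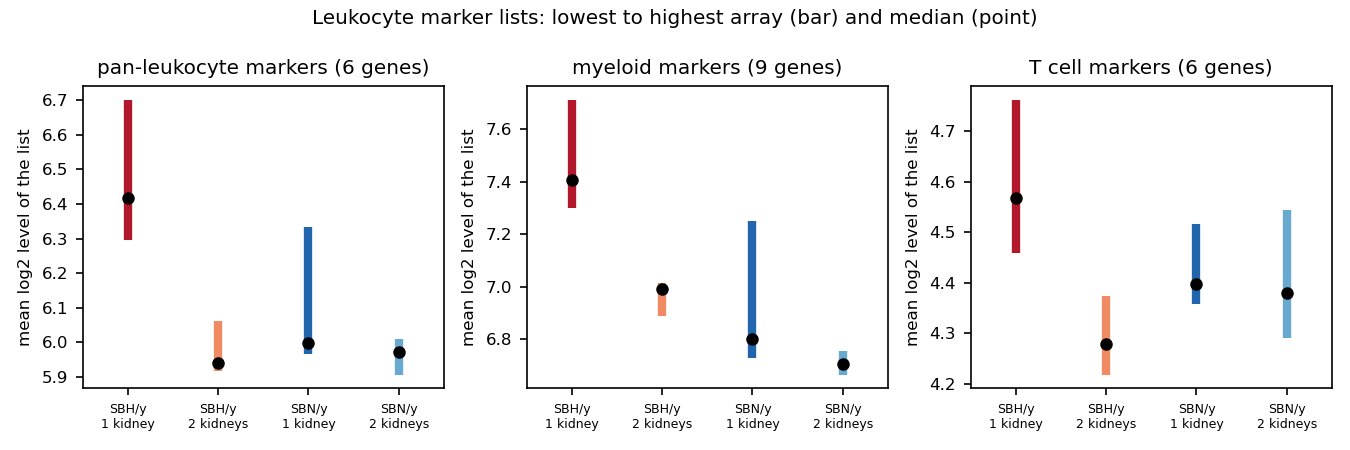
Mean log2 level of the pan-leukocyte (6 genes), myeloid (9 genes) and T cell (6 genes) marker lists in the 4 groups; the bar runs from the lowest to the highest array and the point is the median array. In SBH/y the bar of the uninephrectomized arrays lies above that of the sham arrays in all 3 lists, at 6.29 to 6.70 against 5.92 to 6.06 for pan-leukocyte markers.

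The other 26 genes did not pass in SBH/y. Their differences ran from -0.14 for Itga2b, the fibrinogen receptor chain of platelets, to 0.49 for Itga1, a collagen receptor chain, and 25 of their 95% intervals lay within 0.5 of 0 on both sides. So did 28 of the intervals of all 32 genes, called ones among them, so this bound does not set the called genes apart. Itga1 was read at 6.59, 6.90 and 7.81 in uninephrectomized SBH/y kidneys, against 6.07, 6.63 and 7.02 in sham SBH/y kidneys. With an SE of 0.18, the widest of all 32 genes, its difference did not pass (limma adjusted p = 0.142), and with the GAPDH covariate it was 0.28.

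Itga3, Itga8 and Itgb1, which podocytes or mesangial cells are known to carry, did not pass in SBH/y. Itga3, the alpha chain of the main laminin receptor of podocytes, differed by 0.02 ± 0.07 (SE), and Itga8, known for its need in kidney development in mice and its presence in mesangial cells, by -0.02 ± 0.05. Itgb1, the common beta chain, differed by 0.15 ± 0.07 (limma adjusted p = 0.271), and by 0.20 ± 0.07 at its second probe set (adjusted p = 0.0934). In SBN/y that second probe set differed by a similar 0.18 ± 0.07 (adjusted p = 0.455). Podocyte markers moved in the same kidneys, with 3 of 6 lower after uninephrectomy, against 2.40% of all genes. The lower ones were Ptpro (-0.42), the nephrin gene Nphs1 (-0.42) and Wt1 (-0.36). The receptors of fibronectin and of other ligands with an RGD motif did not pass: the differences were -0.03 for Itga5, 0.22 for Itgav, 0.14 for Itgb3, -0.03 for Itgb5 and -0.11 for Itgb6, the epithelial chain known for activating TGF-beta with Itgav.

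Among the laminins, the chains of the mature glomerular membrane differed little in SBH/y: Lama5 by 0.02 ± 0.06 (SE), Lamb2 by -0.03 ± 0.07 and Lamc1 by 0.07 ± 0.07. Lama4, a chain of vessel walls, differed by 0.22 ± 0.09 (limma adjusted p = 0.197). Lamb3, an epithelial chain that joins the chain of Lama3 in the laminin under hemidesmosomes, differed by 0.22 ± 0.07 (adjusted p = 0.0684), at means of 4.21 and 3.99, below the median probe set. Lama3 itself differed by -0.06, Lama1 by 0.11, Lama2 by -0.01 and Lamc3 by -0.04.

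**Figure D3:**
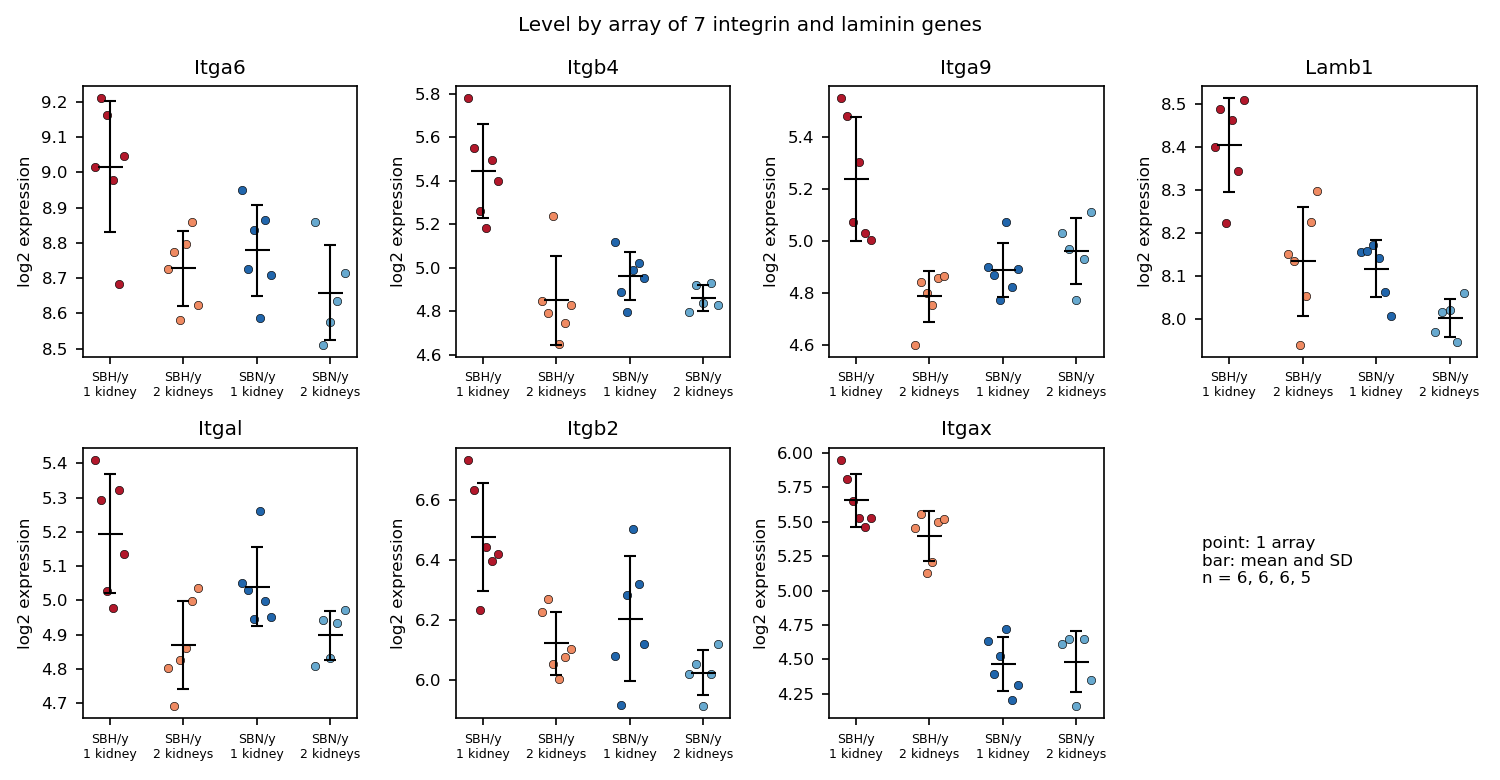
Log2 level on each array for the 6 genes that were higher in SBH/y after uninephrectomy and for Itgax, with the mean and SD of each group as the bar (6, 6, 6 and 5 arrays). Uninephrectomized SBH/y arrays are the highest group for Itgb4, Itga9, Lamb1, Itgal, Itgb2 and Itga6, and for Itgax both SBH/y groups, from 5.12 upwards, lie above both SBN/y groups, which reach 4.72.

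Many ligands of these receptors were also higher in SBH/y after uninephrectomy. Of 25 measured matrix and plasma ligands of integrins, 14 were higher and 1 lower, where 4.76% of all genes were higher and 2.40% lower. Their median difference was 0.41, against 0.0036 over all genes. Spp1, which encodes osteopontin, differed by 1.45 ± 0.10 (SE), Ccn1, a matricellular protein, by 1.24 ± 0.13, Col3a1, a fibrillar collagen, by 0.72 ± 0.09, and Fbn1, the microfibril protein fibrillin, by 0.67 ± 0.08. Tgfbi, a matrix protein that binds integrins, was the gene that fell, by 0.22. Markers of the mesangium and smooth muscle (3 of 6) and of fibroblasts (2 of 5) were higher in the same kidneys. The fibroblast list holds Col1a1 and Col3a1 itself. Spp1 is likewise among the markers of injured proximal tubule given above, and so counts in both lists. The part of these markers in the differences of the ligands was not tested.

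The lists that follow are set against the same shares of all genes, 4.76% higher and 2.40% lower. Of 16 measured partners of laminin in basement membranes, 4 were higher and none lower, with a median of 0.02. They were the collagen genes Col4a1 (0.44 ± 0.07, SE), Col4a2 (0.43 ± 0.09) and Col15a1 (0.40 ± 0.08) and the matrix protein gene Sparc (0.32 ± 0.07). Among 12 ligands on cell surfaces, Icam1, which LFA-1 binds, was higher by 0.44 ± 0.07 and no other gene passed, a count too small to set against those shares. Of 32 adaptors and kinases of integrin adhesion, 5 were higher and none lower. The smallest p were those of Actn1 (0.51 ± 0.10), Zyx (0.30 ± 0.07) and Apbb1ip (0.39 ± 0.10). Fermt3, a kindlin of blood cells that activates integrins, differed by 0.36 ± 0.10. These lists, like the 32 genes, were chosen with earlier results of these data known.

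**Figure D4:**
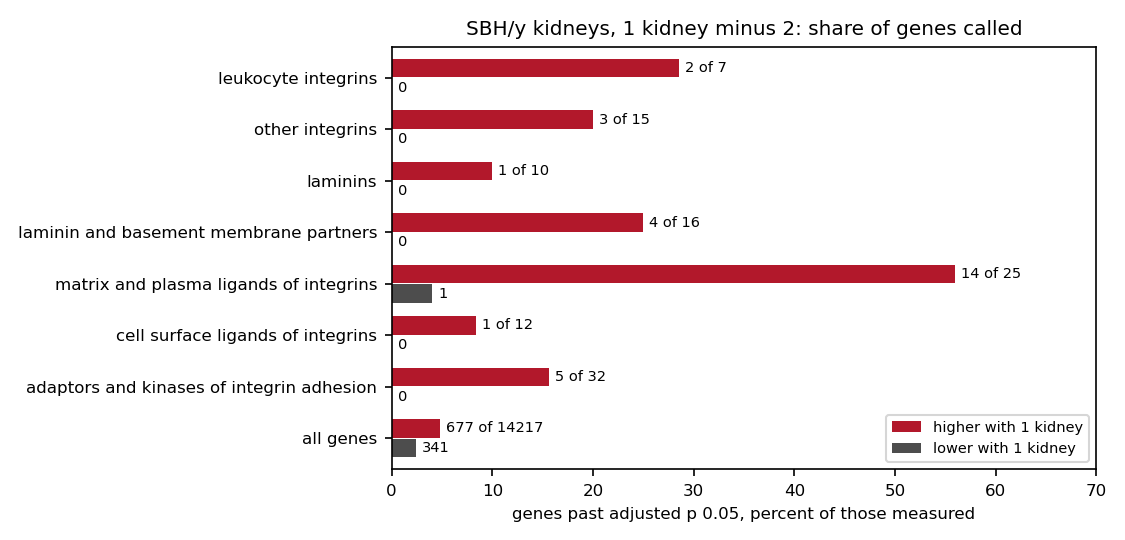
Percent of measured genes past an adjusted p of 0.05 in SBH/y, 1 kidney minus 2, for the integrin and laminin classes, the partner lists and all genes; red bars are higher and grey bars lower, with counts at the bar ends. The matrix and plasma ligands have the longest bar, at 14 of 25, and all genes the shortest among the red bars, at 677 of 14217.

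In SBN/y, none of the 32 genes passed after uninephrectomy, where 0.253% of all genes did in either direction by limma, and none had an unadjusted p under 0.05 at its brightest probe set. The differences ran from -0.24 for Itga1 to 0.18 for Itgb2, with a median of -0.0034 against 0.0046 over all genes. For 31 of the 32 genes the 95% interval lay within 0.5 of 0 on both sides, as it did for 28 in SBH/y. The exception in SBN/y was Itga1, at -0.64 to 0.15, whose difference was -0.52 with the GAPDH covariate (adjusted p = 0.308).

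Itgb4 was read at 4.80, 4.97 and 5.12 in uninephrectomized SBN/y kidneys, against 4.80, 4.92, 4.84, 4.93 and 4.83 in sham SBN/y kidneys, and the groups overlapped (difference 0.10 ± 0.09, SE). Itga9 was read at 4.78, 4.88 and 5.07 in uninephrectomized SBN/y kidneys, against 5.03, 4.97, 4.77, 4.93 and 5.11 in sham SBN/y kidneys (difference -0.07 ± 0.09). Lamb1 stood at 8.01, 8.15 and 8.17 in uninephrectomized SBN/y kidneys, against 7.97, 8.02, 8.02, 7.95 and 8.06 in sham SBN/y kidneys (difference 0.11 ± 0.06). The groups overlapped for Itga9 and Lamb1 as well.

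Itgal was read at 4.95, 5.01 and 5.26 in uninephrectomized SBN/y kidneys, against 4.81, 4.94, 4.83, 4.93 and 4.97 in sham SBN/y kidneys (difference 0.14 ± 0.08, SE). Itgb2 was read at 5.92, 6.20 and 6.50 in uninephrectomized SBN/y kidneys, against 6.02, 6.05, 5.91, 6.02 and 6.12 in sham SBN/y kidneys (difference 0.18 ± 0.09). Replicate 4 of uninephrectomized SBN/y was the highest array of its group for both genes, and the pan-leukocyte list ran from 5.97 to 6.33 in that group, against 5.91 to 6.01 in sham SBN/y. Itga6 stood at 8.59, 8.78 and 8.95 in uninephrectomized SBN/y kidneys, against 8.86, 8.51, 8.57, 8.63 and 8.71 in sham SBN/y kidneys (difference 0.12 ± 0.08). No gene of the 4 partner lists passed in SBN/y.

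The test of the difference between the responses, SBH/y minus SBN/y, called none of the 32 genes, where 0.408% of all genes were called by limma, and 6 had an unadjusted p under 0.05. A response that passed in SBH/y and not in SBN/y was thus not shown to differ for any of them in this fit. The closest was Itga9, whose response was 0.53 ± 0.12 (SE) more positive in SBH/y (adjusted p = 0.0603), followed by Itgb4 with 0.49 ± 0.13 (adjusted p = 0.121). Itga9 passed with the GAPDH covariate (0.54, adjusted p = 0.0370) and without replicate 3, 5 or 6 of uninephrectomized SBH/y, 4 of uninephrectomized SBN/y or 3 of sham SBN/y (adjusted p from 0.0258 to 0.0480). It did not pass without the 2 arrays that stood apart (0.48, adjusted p = 0.121). Itgb4 passed without replicate 3 of sham SBH/y (0.57, adjusted p = 0.0209). The others were Itga1 (0.73 ± 0.26), Lama4 (0.35 ± 0.13), Itga7, a laminin receptor chain of muscle (-0.22 ± 0.10), and Lamb3 (0.20 ± 0.10). Among the partners the test called Spp1 (1.01 ± 0.14) and Fbn1 (0.65 ± 0.12), both more positive in SBH/y.

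With 1 kidney, 7 of the 32 genes were higher in SBH/y than in SBN/y and 2 were lower, where by limma 10.2% of all genes were higher and 7.48% lower. Itgax differed most, followed by Itgb4, Itga9, Lamb1, Lama4, Itgb2 and Itga6, and the laminin chains Lama3 and Lamb2 were lower. With 2 kidneys, Itgax was higher and Lamb2 lower, against 5.50% and 5.54% of all genes. The median over the 32 genes was 0.10 with 1 kidney and -0.01 with 2, against 0.0060 and 0.0068 over all genes. These comparisons share arrays with those after uninephrectomy, so their values are not independent of them.

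Itgax had the largest strain difference of the 32 genes. It was read at 5.46, 5.59 and 5.95 in uninephrectomized SBH/y kidneys, against 4.20, 4.46 and 4.72 in uninephrectomized SBN/y kidneys. With 2 kidneys it was read at 5.12, 5.48 and 5.56 in SBH/y, against 4.61, 4.65, 4.16, 4.65 and 4.35 in SBN/y. Every SBH/y array lay above every SBN/y array, as was so in this direction for 5.32% of all genes with 1 kidney and 4.92% with 2. The difference was 1.19 ± 0.10 (SE) with 1 kidney, or 2.28-fold (limma adjusted p = 1.46e-09), and 0.91 ± 0.11 with 2 kidneys, or 1.88-fold (adjusted p = 6.24e-07).

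The genes of Itgam, Itgax and Itgad follow one another on chromosome 1 in the RefSeq annotation of GRCr8, with no gene between them, and encode alpha chains that share the beta chain of Itgb2. The neighbours of Itgax did not pass: Itgam differed by -0.04 with 1 kidney and 0.03 with 2, and Itgad by -0.03 and -0.05, although both were dim. Itgal, farther along the same chromosome, differed by 0.15 ± 0.07 (SE, not past the threshold) with 1 kidney and by -0.03 with 2. Itgb2 was higher in SBH/y with 1 kidney by 0.27 ± 0.08 (limma adjusted p = 0.0278), at 6.23, 6.43 and 6.74 in SBH/y against 5.92, 6.20 and 6.50 in SBN/y, and differed by 0.10 with 2 kidneys. It lost its call with the GAPDH covariate (adjusted p = 0.0573), without the 2 arrays that stood apart (0.24, adjusted p = 0.0714) and without replicate 1 or 2 of uninephrectomized SBH/y or 1, 2 or 6 of uninephrectomized SBN/y (adjusted p up to 0.0945). Itgae was read higher on every sham SBH/y array than on any sham SBN/y array, as were 4.92% of all genes. The difference of Itgae was only 0.14 (adjusted p = 0.283), and it lay below the median probe set.

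Myeloid markers moved the same way as Itgax in both comparisons. With 1 kidney, 8 of 9 were higher in SBH/y (median 0.62), and the list lay between 7.30 and 7.71 in SBH/y, against 6.73 to 7.25 in SBN/y. With 2 kidneys, 5 of 9 were higher (median 0.33), at 6.89 to 7.01 in SBH/y against 6.67 to 6.76 in SBN/y. Of the 6 pan-leukocyte markers, 5 were higher in SBH/y with 1 kidney and none passed with 2. Among all genes, 10.2% were higher in SBH/y with 1 kidney and 5.50% with 2. The part of these markers in the difference of Itgax was not tested. Itgax has 1 probe set on the array, so no second reading of it exists here.

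The promoters of Itgax and Lama3 are shown because they hold the only matches to the AP-1 letters among the 24 sequences. Itgax lies at chr1:192149799-192150098 on the + strand and Lama3 at chr18:3952517-3952816 on the + strand, again from RefSeq on GRCr8 with matches to the same letters in capitals.
Itgax: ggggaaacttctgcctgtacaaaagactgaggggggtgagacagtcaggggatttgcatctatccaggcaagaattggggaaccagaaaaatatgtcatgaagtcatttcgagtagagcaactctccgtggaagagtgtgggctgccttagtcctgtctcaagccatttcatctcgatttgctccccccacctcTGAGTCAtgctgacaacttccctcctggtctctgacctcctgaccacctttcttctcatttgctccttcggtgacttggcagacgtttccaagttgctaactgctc
Lama3: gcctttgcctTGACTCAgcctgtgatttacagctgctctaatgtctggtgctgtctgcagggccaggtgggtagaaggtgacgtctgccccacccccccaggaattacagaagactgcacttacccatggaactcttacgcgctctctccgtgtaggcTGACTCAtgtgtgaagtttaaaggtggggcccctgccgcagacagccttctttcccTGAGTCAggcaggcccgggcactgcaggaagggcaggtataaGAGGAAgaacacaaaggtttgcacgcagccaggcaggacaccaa
Itgax held 1 AP-1 match, at position -56 counted from its start, and Lama3 held 3 and 1 copy of GAGGAA. The matches describe these letters only.

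Among the integrins other than the leukocyte chains, Itgb4 with 1 kidney was read at 5.18, 5.45 and 5.78 in SBH/y, against 4.80, 4.97 and 5.12 in SBN/y. The groups did not overlap, as was so in this direction for 5.32% of all genes. The difference was 0.48 ± 0.09 (SE, limma adjusted p = 0.000233). Itga9 was higher by 0.35 ± 0.08 (adjusted p = 0.00393) and Itga6 by 0.24 ± 0.08 (adjusted p = 0.0443), both with overlap. The Itga6 call was lost in 13 of 23 fits that left out 1 array (adjusted p up to 0.120), which spanned all 4 groups, with the GAPDH covariate (0.21, adjusted p = 0.149) and without the 2 arrays that stood apart (0.20, adjusted p = 0.104), and its next probe set gave 0.12. Markers of injured proximal tubule were higher in SBH/y in 6 of 7 cases with 1 kidney and 1 of 7 with 2. Of all genes, 10.2% were higher with 1 kidney and 5.50% with 2. The part of these markers was not tested. With 2 kidneys, Itgb4 differed by -0.01 ± 0.09, Itga6 by 0.07 ± 0.08 and Itga9 by -0.18 ± 0.09, none past the threshold.

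Itgav, the alpha chain of several RGD receptors, gave different answers by probe set. Its brightest one differed by 0.19 ± 0.09 (SE, limma adjusted p = 0.197) with 1 kidney, while the next 2 were higher in SBH/y by 0.48 (adjusted p = 0.00193) and 0.34 (adjusted p = 0.00950). Itgb5, a partner of Itgav, differed by 0.0070 at its brightest probe set with 1 kidney and by 0.03 with 2. A further, dim probe set of Itgb5 fell by 0.45 in SBH/y (adjusted p = 0.00151) with 1 kidney and by 0.36 (adjusted p = 0.0228) with 2, relative to SBN/y.

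Of the laminin beta chains with 1 kidney, Lamb1 was higher and Lamb2 lower in SBH/y, and Lamb3 differed by 0.18 without passing. Lamb1 with 1 kidney stood at 8.22, 8.43 and 8.51 in SBH/y, against 8.01, 8.15 and 8.17 in SBN/y (difference 0.29 ± 0.06, SE, limma adjusted p = 0.000875). Its groups did not overlap, as was so in this direction for 5.32% of all genes. With 2 kidneys Lamb1 differed by 0.13 ± 0.06 (adjusted p = 0.242). Lamb2, the beta chain of the mature glomerular membrane, whose loss causes congenital nephrotic syndrome in people, was read at 6.86, 7.13 and 7.21 in sham SBH/y kidneys, against 7.39, 7.31, 7.51, 7.26 and 7.49 in sham SBN/y kidneys.

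Every sham SBH/y array lay below every sham SBN/y array for Lamb2, as was so for 4.80% of all genes, and the difference was -0.31 ± 0.07 (SE, limma adjusted p = 0.00519). With 1 kidney Lamb2 was read at 6.93, 7.05 and 7.20 in SBH/y, against 7.20, 7.29 and 7.37 in SBN/y. The groups overlapped at their edge, and the difference was -0.23 ± 0.07 (adjusted p = 0.0207), a call lost without replicate 1, 3 or 4 of uninephrectomized SBH/y or 1 or 2 of uninephrectomized SBN/y (adjusted p up to 0.0606).

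Of the laminin alpha chains, Lama3, an epithelial chain, stood at 5.90, 6.05 and 6.18 in uninephrectomized SBH/y kidneys, against 6.15, 6.36 and 6.42 in uninephrectomized SBN/y kidneys (difference -0.27 ± 0.07, SE, limma adjusted p = 0.00520). With 2 kidneys it differed by -0.13 ± 0.07 (adjusted p = 0.331). Lama4 was higher with 1 kidney in SBH/y, at 4.80, 4.97 and 5.31 against 4.53, 4.67 and 5.02 in SBN/y (difference 0.28 ± 0.09, adjusted p = 0.0307). That call was lost without replicate 1, 2 or 6 of uninephrectomized SBH/y or 1, 3, 5 or 6 of uninephrectomized SBN/y (adjusted p up to 0.101) and with the GAPDH covariate (0.24, adjusted p = 0.125) and without the 2 arrays that stood apart (0.27, adjusted p = 0.0534), and a second, dim probe set gave -0.04. Lama1, Lama2, Lama5, Lamb3, Lamc1 and Lamc3 passed in neither comparison between strains.

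**Figure D5:**
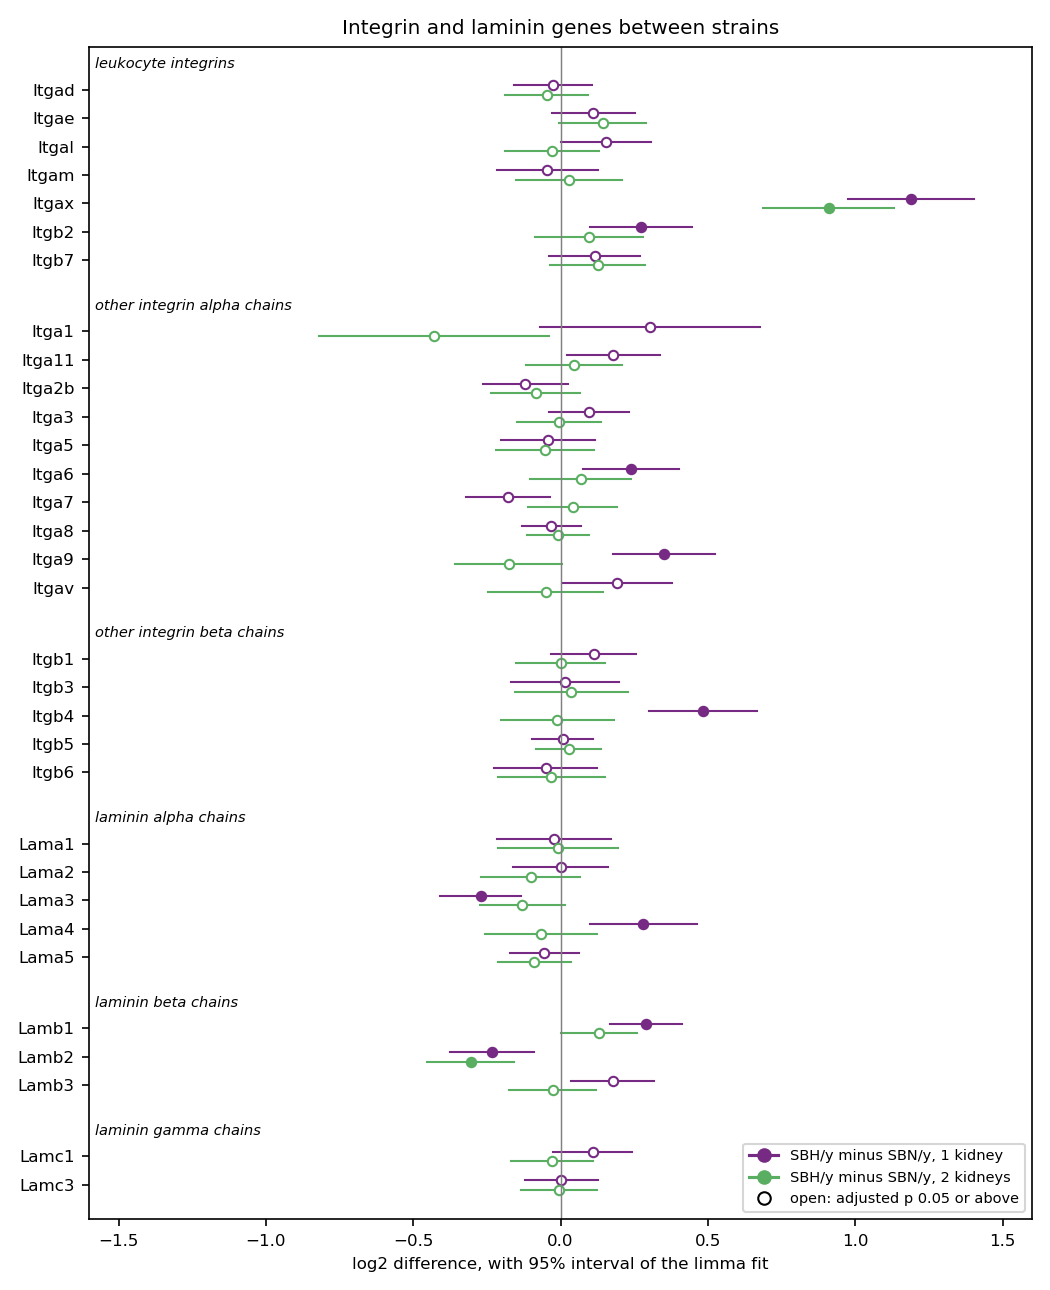
Log2 difference, SBH/y minus SBN/y, for the 32 integrin and laminin genes with 1 kidney (purple) and with 2 kidneys (green), with the 95% interval of the limma fit as the line; filled points passed an adjusted p of 0.05. Itgax lies farthest to the right, at 1.19 and 0.91, and Lamb2 lies left of 0 in both, at -0.23 and -0.31.

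The partner lists between strains are set against all genes, of which 10.2% were higher and 7.48% lower with 1 kidney. There, 8 of 16 basement membrane partners were higher and 1 lower, with the smallest p for Col4a1 (0.69 ± 0.07, SE), Col4a2 (0.82 ± 0.09) and Nid1, the nidogen that links laminin to collagen (0.68 ± 0.09). Of the 25 matrix and plasma ligands, 17 were higher and none lower (median 0.50), with the smallest p for Spp1 (1.52 ± 0.10), Col6a1 (0.87 ± 0.08) and Col6a3 (0.62 ± 0.06). On cell surfaces, 4 of 12 ligands were higher and 1 lower, with Icam1 at 0.40 ± 0.07, Vcam1, a ligand of the Itga9 chain, at 0.39 ± 0.07 and Icam2 at -0.27 ± 0.06. Of the 32 adaptors and kinases, 6 were higher and 1 lower, with Zyx at 0.55 ± 0.07 and Rsu1, a partner of integrin-linked kinase complexes, at -0.39 ± 0.07.

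With 2 kidneys, the counts higher and lower in SBH/y were 5 and 1 of 16 basement membrane partners, 7 and 0 of 25 matrix and plasma ligands, 1 and 1 of 12 surface ligands, and 2 and 2 of 32 adaptors and kinases. Among all genes 5.50% were higher and 5.54% lower, a share close to that of the adaptors and kinases. Col4a2 (0.59 ± 0.09, SE), Col4a1 (0.42 ± 0.07) and Nid1 (0.46 ± 0.10) were again higher, as was Tgfbi (0.63 ± 0.07), and Rsu1 was again lower (-0.55 ± 0.08).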

How the data were processed

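Kidney RNA of 23 male rats was read on 1 Affymetrix array per rat sample. GCOS and RMA are named in the submitters' processing notes, with no version. The deposited values are log2 expression, a single value for each probe set on each array. RMA equalizes the arrays' distributions (medians 4.65 to 4.69), so a change in total mRNA could not be seen, and the number of arrays limits the precision. Scan dates were not used here. Beyond sample names the labels say nothing of separate litters or batches, so the spread that the p-values rest on may be partly technical.

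The 57 control probe sets among 31099 were dropped. GEO's platform annotation gave 1 symbol for 20826 probe sets, several for 436 and none for 9780, and RefSeq (GRCr8) held the gene identifiers of 20758. Each gene was read at its probe set with the highest mean. The 32 genes have 48 probe sets, and 10 of them have more than 1.

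A single linear model over the 4 groups, without covariates, gave every comparison (two-sided, limma 3.58.1 in R 4.3.3). P-values were adjusted by Benjamini-Hochberg over 31042 probe sets, with a threshold of 0.05. Errors are standard errors unless SD is given. The members and lists were chosen with earlier results of these data known. Values by sample are given for genes past the threshold after uninephrectomy and for those that differed by at least 0.5 between strains, and up to 4 genes of a partner list with the smallest p are named. The levels of Itga1, Lamb2, Lama3 and Lama4, and Tgfbi after uninephrectomy, were added after their values were seen. Data were simulated for uninephrectomy in SBH/y over 31042 probe sets. The model recovered 90 of 100 changes of 0.5 and 100 of 100 changes of 1, with 9 false calls. Changes below 0.5, the size of most differences called here, were not simulated, so their recovery is not known. Alternatives were a second quantile normalization, dropping dim probe sets, a variance trend with robust estimation, fitting a comparison's own groups, testing a single probe set per gene, reading the next probe set, a GAPDH covariate, a replicate block, leaving out the 2 arrays that stood apart, and leaving out each array in turn.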

Additional observations from a re-analysis of the deposited data

Results flagged for a closer look

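Of 128 sets of 6 or 5 arrays, 1 for each gene and group, 7 had a single array far from the others of its group, and chance alone flags about 1 in 20 such sets. In 3 of them the array was replicate 3 of sham SBH/y, which was the highest of its group for Itgb4 (5.24, the others 4.65 to 4.85), Itgae (4.62, the others 4.39 to 4.46) and Itgam (4.03, the others 3.74 to 3.84). Replicate 5 of sham SBH/y was the lowest for Lamb3 (3.74, the others 3.98 to 4.07). In uninephrectomized SBN/y, replicate 4 was the highest for Itgal (5.26, the others 4.95 to 5.05) and the lowest for Lama1 (4.99, the others 5.28 to 5.41), and replicate 2 was the lowest for Itgav (8.16, the others 8.31 to 8.40).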

How the results depend on the processing

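The number of the 32 genes called after uninephrectomy in SBH/y was 6, and 4 to 7 under the alternatives that kept their brightest probe sets; leaving out each array gave 5 to 6. Between strains it was 9 with 1 kidney (6 to 9 under the other alternatives; 5 to 10 with 1 array left out, the 5 without replicate 1 of uninephrectomized SBH/y) and 2 with 2 kidneys (2 to 3; 2 to 2 with 1 array left out). After uninephrectomy in SBN/y it was 0 throughout. For the difference of responses it was 0, but 1 with a filter on dim probe sets (Itga9, adjusted p = 0.0430), with 1 probe set per gene (Itga9, adjusted p = 0.0382), with the GAPDH covariate (Itga9) and without the 2 arrays that stood apart (Itgb4, 0.55, adjusted p = 0.0320), and 0 to 1 with 1 array left out. With the next probe set, which 10 of the 32 genes have, 0 passed after uninephrectomy in SBH/y, 1 between strains with 1 kidney (Itgav) and 0 with 2; Itga9 then reversed to -0.055 in SBH/y and -0.0056 between strains, and Lama4 to -0.040 between strains, at probe sets dimmer than the median, and the cause was not tested. Fitting only the groups compared ended the call of Itga6 in SBH/y and those of Itga6, Itgb2 and Lama4 between strains with 1 kidney. Such a fit was not run for the difference of responses, which needs all 4. With the GAPDH covariate Itga1 was lower in SBH/y with 2 kidneys by 0.73 (adjusted p = 0.0135), against 0.43 without it. Itga6 lost its call in SBH/y in 7 of 23 fits with 1 array left out (adjusted p up to 0.0860). The calls of Itgb4, Lamb1 and Itgal in SBH/y, of Itgax in both strain comparisons, and of Itgb4, Lamb1 and Lama3 with 1 kidney and Lamb2 with 2 held under all 31 alternatives run for each. With the replicate number as a block, 6, 0, 8, 2 and 0 genes were called in SBH/y, in SBN/y, between strains with 1 kidney and with 2, and for the difference of responses. Same-numbered arrays of different groups did not deviate together (median r = 0.04 over 33 pairs, from -0.27 to 0.26, with 7 above 0.1), so the numbers were not taken to pair the samples. Signal over background limits the dim genes, above all Itga11.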
